A study of Mus musculus with 16 samples.

Results

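The proteasome genes of mouse liver were taken as all gene symbols that begin with Psm, one of the letters a to g, and a digit. The pattern matched 49 of the 20826 symbols counted in the livers, and 48 of these name proteasome subunits, regulators or assembly chaperones. The remaining one, Psmc3ip, encodes a partner of the meiotic recombinase and only shares the prefix, so it was kept out of all sums. The matched genes were 8 of the alpha ring (Psma), 11 of the beta ring (Psmb), 6 ATPases (Psmc), 14 non-ATPase genes (Psmd), 4 activators (Psme), 1 inhibitor (Psmf1) and 4 assembly chaperones (Psmg).

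Liver RNA came from 16 male C57BL/6J mice, labelled 4 weeks old and fed for 18 weeks, with 4 mice in each of 4 groups and a library per mouse. N mice ate the normal diet with 10% fat, and HF mice the high-fat diet with 45% fat. NW and HFW mice ate the same diets, respectively, with 1% WEPAK, the water-soluble fraction extracted from Pacific krill. The assay was SuperSAGE, which counts a short tag beside the NlaIII site nearest the poly(A) tail of each captured transcript. A transcript gives at most 1 tag whatever its length, so tag levels of different genes were set side by side without a length correction.

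The proteasome is the main protease for ubiquitin-tagged proteins in the cytosol and nucleus. Its barrel-shaped core particle is a stack of alpha and beta rings, and the cutting sites sit on the beta1, beta2 and beta5 subunits, encoded by Psmb6, Psmb7 and Psmb5. Under interferon signals these are replaced by Psmb9, Psmb10 and Psmb8, which form the immunoproteasome and favour peptides for antigen presentation. A regulatory particle of a Psmc ATPase ring and Psmd subunits binds the ubiquitin chain, removes it, and threads the unfolded protein into the core. In the liver this system degrades, among many proteins, apolipoprotein B and misfolded secretory proteins that are drawn back out of the endoplasmic reticulum.

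Each gene is counted through a tag, and the predicted tags of the genes that lead the counts are shown first. Each is the 26 bases of the CATG nearest the 3′ end of a GENCODE M21 transcript (GRCm38), with the NlaIII site in capitals. The match of tags to genes behind the deposited counts may differ from this prediction. The tags of Psma1, Psmb6, Psmd2, Psmb2, Psmb9 and Psmd6 occur in transcripts of no other gene.
Psma1: CATGgtctgcgtgccttaagagaaac
Psmb6: CATGgaacgcgacggctccagtggag
Psmd2: CATGgggagcgggcagagttggccac
Psmd6: CATGtaaagccacttttcaacgtgtt
Psmb2: CATGgctatggtgcctttctgactct
Psmb9: CATGcccttccattcttttgtaaaaa

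The Psma1 tag lies at chr7:114267152-114267177 on the minus strand, in coding exon 8 of 10. The Psmb6 tag lies at chr11:70527450-70527475 on the plus strand, in the coding part of exon 6 of 6. The Psmd2 tag lies at chr16:20663144-20663169 on the plus strand, in the coding part of exon 21 of 21. The Psmd6 tag lies at chr14:14112271-14112296 on the minus strand and spans the stop of the coding sequence and the 3′ UTR in exon 8 of 8. The Psmb2 tag lies at chr4:126706166-126706191 on the plus strand in coding exon 4 of 6, and the Psmb9 tag at chr17:34182062-34182087 on the minus strand in the 3′ UTR. Over all 49 matched genes the predicted tag fell in the 3′ UTR for 27, in coding sequence for 16 and across both for 6.

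Predicted tags of genes that were never counted are shown for contrast. Psma5, Psme2 and Psmd14 have a predicted tag that also occurs in a transcript of another gene, Gm8394, Psme2b and Gm12096 respectively. The Psma7 tag is in 1 gene and spans the junction of exons 6 and 7. All 4 of these genes had 0 tags in the 16 libraries.
Psma5: CATGgaaaatatccagtatatgtgtg
Psme2: CATGgtgctggacctgagggccttct
Psmd14: CATGtggatgtgcttatgacttcaaa
Psma7: CATGaggcgggatcagccgctcaaga

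Of the 7 matched genes whose tag also occurs in another gene, 3 had any tag (42.9%), with 4 tags between them and at most 2 in a gene. Of the 38 with a tag in 1 gene, 29 were counted (76.3%), with a median of 6 tags. The corresponding shares over all symbols were 28.0% of 1349 with a shared tag and 52.5% of 17251 with a tag in 1 gene. For the other 4 matched genes, Psmb8, Psmc1, Psmd1 and Psmd12, the tag runs past the annotated transcript end, and all 4 had tags, 61 in all. A low or zero count of a proteasome gene here is a count of matched tags, and whether the gene was transcribed at a low level was not tested.

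Counts were very uneven between subunits that stand together in the same particle. In all, 1637 of 1379164 tags came from the matched genes, and 36 of 49 had at least 1 tag. Psma1, an alpha ring subunit, had 361 tags, Psmd6, a subunit of the regulatory lid, 287, Psmd2, a scaffold of the regulatory base, 259, and Psmb6, the beta1 protease, 192. These 4 genes held 67.1% of all tags of the matched genes. A further 14 genes had 11 to 72 tags, among them Psmb9 with 72, Psmb2 with 65, Psmb7 with 42, Psma4 with 41 and Psmd12 with 40. Another 18 had 1 to 10 tags. The median over the 49 genes was 5 tags, and 5 genes (Psma1, Psmb2, Psmb9, Psmd2 and Psmd6) were seen in every library.

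The 13 genes with 0 tags were Psma5, Psma7, Psma8, Psmb11, Psmc6, Psmd7, Psmd10, Psmd13, Psmd14, Psme2, Psmg2, Psmg3 and Psmg4. A count of 0 in all 16 libraries allows up to 3 tags, or 2.15 CPM (CPM are tags scaled to a common normalized library size). Psma8 is the alpha4 form of the testis and Psmb11 the beta5 form of the thymus cortex. Psma5 and Psma7 are constitutive alpha subunits, and Psmd14 is the deubiquitinase of the lid.

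**Figure D1:**
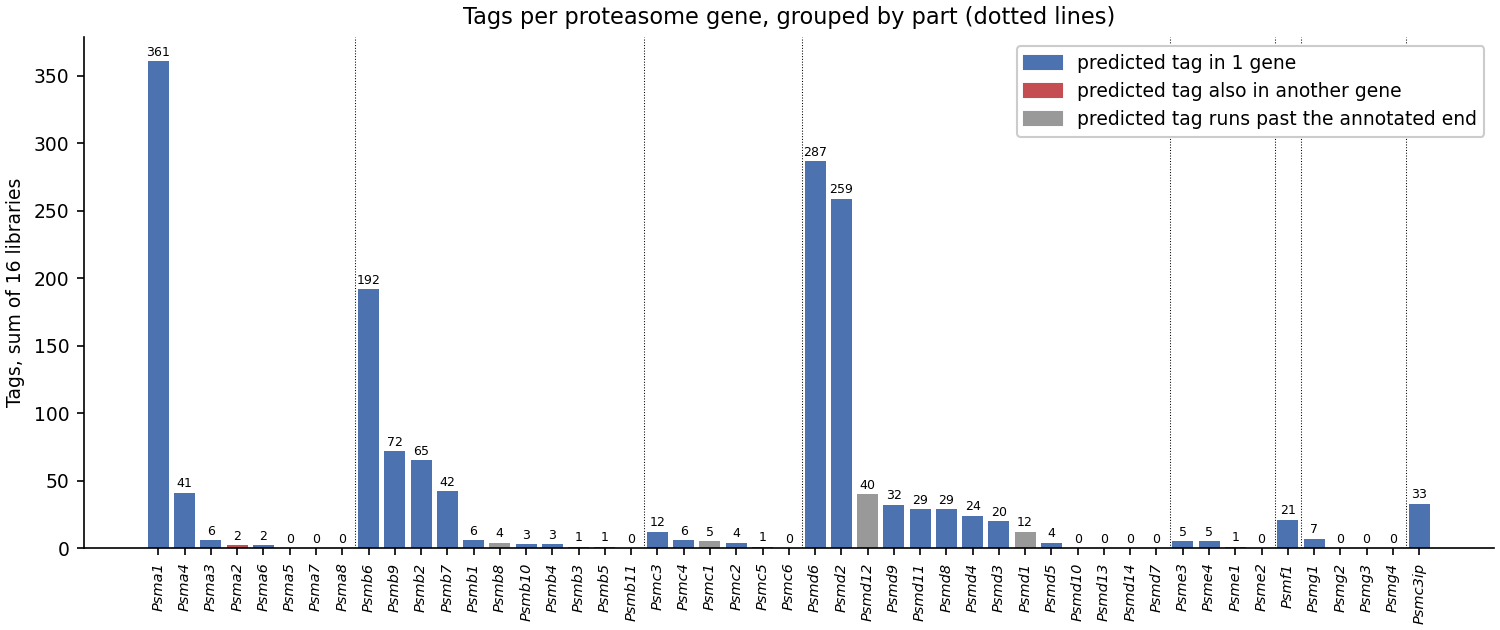
Bars give the tags of each matched gene summed over 16 libraries, in order of the part of the proteasome, with colours for the predicted tag: in 1 gene, shared with another gene, or past the annotated end. Psma1 (361), Psmd6 (287), Psmd2 (259) and Psmb6 (192) stand above all others, and the genes with a shared tag have at most 2.

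The ATPases, the motor of the regulatory particle, had 28 tags among 6 genes, 12 of them from Psmc3. The non-ATPase genes had 736 among 14. By symbol they include Psmd5, Psmd9 and Psmd10, chaperones of base assembly, of which Psmd9 had 32 tags, Psmd5 4 and Psmd10 0. Psmd4, the ubiquitin receptor of the base, had 24. The activators had 11 tags: 5 each from Psme3 and Psme4, the activators of the nucleus, 1 from Psme1 and 0 from Psme2, the interferon-induced pair. Psmf1, an inhibitor of the core, had 21, and Psmg1, a chaperone of alpha ring assembly, 7. For these genes a group held too few tags for a comparison of levels: Psmf1, for example, had 2 tags in N and 7 in NW, and 9 in HF and 3 in HFW.

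Library totals, over named genes, ran from 56655 to 149349 tags, so that 1 tag equals 6.70 to 17.7 CPM. HF libraries were the deepest, with 118882 ± 23746 tags (SD, n = 4), against 75963 ± 16768 in N, 74198 ± 30660 in NW and 75749 ± 21588 in HFW. N mice 4 and 8 differed from each other more than any other same-group pair (chi-square per degree of freedom 15.0, against 2.93 to 12.4 for the rest), and genes called for the mean effect of WEPAK are given without them too. All 12 hepatocyte markers had tags. Lymphocyte markers were near 0, with 38 tags in all, 5 of 12 counted and Ptprc, Cd4 and Cd8a among those at 0, and 0 of 7 neutrophil markers were counted. Of 11 Kupffer cell markers 9 had tags, with Cd68 and Lyz2 at 0.

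Pooled over the core particle, the 19 Psma and Psmb genes had 801 tags and overlapping levels in the 4 groups. N mice had 446, 706, 529 and 831 CPM, NW mice 529, 544, 318 and 399.8, HF mice 800.1, 645, 418 and 576, and HFW mice 627, 507, 540.3 and 582. The group means were 628 ± 173 CPM (SD, n = 4) in N and 448 ± 108 in NW, and 609.7 ± 159 in HF and 564 ± 51.9 in HFW. The NW mean was the lowest, with NW mice 11 and 12 inside the N range and NW mice 15 and 20 below it. Psma1 made up 45.1% of the core tags and Psmb6 24.0%, so the sum mostly describes these 2 genes. Without Psma1 the NW mean was still the lowest, at 247 CPM, and the HFW mean was the highest, at 365.

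Within the core, alpha and beta rings did not keep the same order of groups. Alpha ring genes had 344 ± 126 CPM (SD, n = 4) in N and 237 ± 39.1 in NW, and 327 ± 99.3 in HF and 217 ± 86.7 in HFW, so that both means with WEPAK were below both means without it. Beta ring genes had 284 ± 95.2 CPM in N and 210.3 ± 69.8 in NW, and 282 ± 59.7 in HF and 347 ± 50.9 in HFW. HFW had the highest beta ring mean and the lowest alpha ring mean. Psma1 held 361 of the 412 alpha ring tags, and Psmb6 192 of the 389 beta ring tags. The alpha ring sum thus mostly describes Psma1. The ranges of single mice overlapped between groups within each diet for both rings.

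The regulatory particles, 24 genes with 775 tags, had 515 ± 85.1 CPM (SD, n = 4) in N and 546 ± 232 in NW, and 577 ± 201 in HF and 541 ± 98.4 in HFW. Single mice ran from 410.3 to 610.3 CPM in N, 226 to 768 in NW, 398 to 832 in HF and 409.9 to 648 in HFW, which overlap throughout. Psmd6 held 37.0% of these tags and Psmd2 33.4%. Without Psmd6 the HF mean went from the highest to the lowest, with 298 CPM against 352 in N, 395 in NW and 392 in HFW. The ratio of core to regulatory tags was 1.22 ± 0.253 (SD, n = 4) in N and 0.999 ± 0.566 in NW, and 1.09 ± 0.237 in HF and 1.07 ± 0.203 in HFW. Its lowest and highest values, 0.415 in NW mouse 15 and 1.77 in NW mouse 20, were in the same group. No test was made of these sums.

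**Figure D2:**
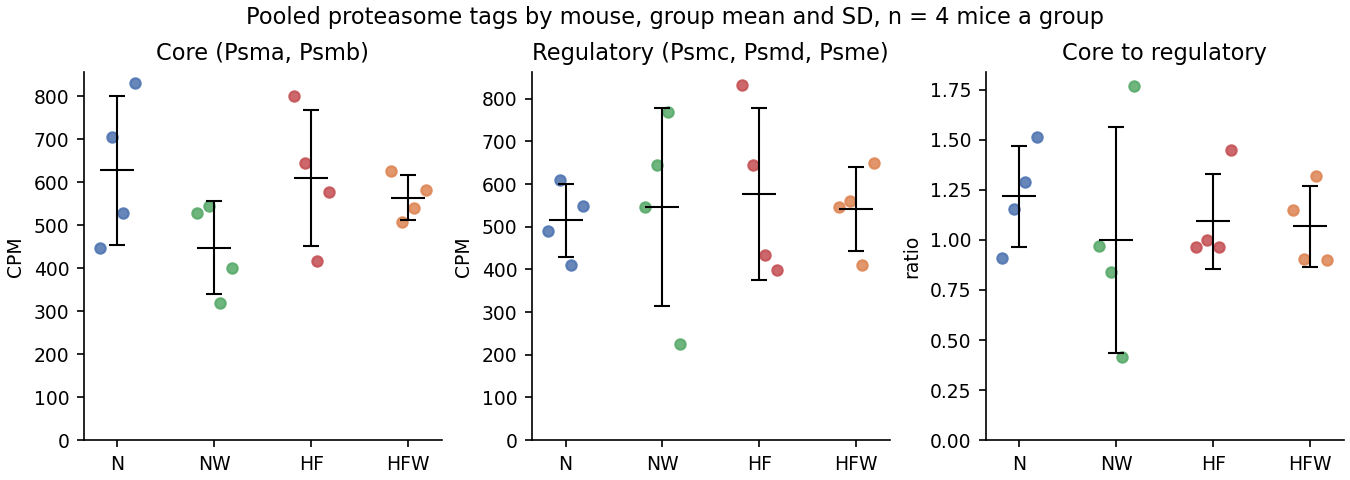
Points are mice, horizontal lines group means and bars SD (n = 4 mice a group), for the summed core genes and the summed regulatory genes in CPM and for their ratio. The groups overlap in every panel, and the ratio spreads most in NW, from 0.415 to 1.77.

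Single genes were compared with edgeR on the counts of all 16 libraries. A filter on low counts, which asks for about 126 CPM in enough libraries, kept 1046 genes and 4 of the proteasome genes: Psma1, Psmb6, Psmd2 and Psmd6. A gene was called where its p, adjusted over the 1046 genes by Benjamini-Hochberg, was under 0.05. Psmb6 reached the level of the filter in 7 libraries, 2 of N, 0 of NW, 3 of HF and 2 of HFW, so it was tested because of the groups in which it was high. The contrasts are not independent, since each of the 4 feeding groups enters more than 1 of them.

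Psmb6, the constitutive beta1 subunit that cuts after acidic residues, was the tested proteasome gene called lower for the mean WEPAK effect. Psma1 (-0.50) and Psmd6 (-0.51) also had negative mean WEPAK effects on the log2 scale, which did not pass. N mice had 119, 162, 185 and 116 CPM and NW mice 68.2, 85, 0 and 34.8. Every NW mouse was below every N mouse. The share of all tested genes with such a separation was not counted. For NW minus N, 28.5% of them had an unadjusted p under 0.05 (edgeR quasi-likelihood F test). HF mice had 263, 200.3, 98.3 and 153 CPM, and HFW mice 209, 122, 74.5 and 132, ranges that overlap, with 3 of 4 HFW mice below the HF mean. The group means were 146 ± 33.7 CPM (SD, n = 4) in N and 47.0 ± 37.6 in NW, and 179 ± 70.1 in HF and 134 ± 55.6 in HFW.

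Averaged over both diets, Psmb6 was 1.86-fold lower with WEPAK, a log2 fold change of -0.90 (SE 0.32, adjusted p = 0.0306, edgeR quasi-likelihood F test, Benjamini-Hochberg). In 7 of 8 WEPAK-fed mice it was below the mean of its diet without the extract. It was 1 of 4 tested proteasome genes called for this mean effect, and lower, while 31.3% of all tested genes were called and 16.1% were called lower. One gene of 4 is near that background. On genes kept by the same filter, the call held with DESeq2 (-0.93, adjusted p = 0.0309) and limma-voom (-1.02, adjusted p = 0.0356). It also held without N mice 4 and 8 (-1.05, adjusted p = 0.0249, edgeR).

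The call did not hold for every choice of mice. With a mouse left out in turn the log2 fold change ran from -1.16 to -0.74 and the adjusted p by edgeR from 0.0170 to 0.0740, and it passed in 7 of 16 cases. It missed when N mouse 5 (adjusted p = 0.0560) or 7 (0.0731) was left out, and likewise for NW mouse 15 (0.0705) or 20 (0.0740), HF mouse 23 (0.0729) or 25 (0.0619), and HFW mouse 36 (0.0553), 38 (0.0604) or 40 (0.0578). With no filter on low counts, where 10171 genes were tested, it was -1.01 (adjusted p = 0.0554, edgeR). In raw tags the NW libraries had 4, 10, 0 and 2, so 2 of them were under the 3 tags that a count of 0 allows.

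In the separate contrasts Psmb6 passed nowhere. NW minus N gave -1.44 (SE 0.50, adjusted p = 0.0521, edgeR quasi-likelihood test), and this passed without NW mouse 12 (-1.96, adjusted p = 0.0498). HFW minus HF gave -0.35 (SE 0.40, adjusted p = 0.603). The difference between these 2 effects, 1.10 on the log2 scale (SE 0.64), did not pass (adjusted p = 0.998), so the extract's effect was not shown to depend on the diet. On diet itself, HF minus N was 0.26 (SE 0.39, adjusted p = 0.842), HFW minus NW 1.36 (SE 0.50, adjusted p = 0.278, higher in 4 of 4 mice) and the mean high-fat effect 0.81 (SE 0.32, adjusted p = 0.162, edgeR quasi-likelihood test).

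Depth differed between the libraries of N and NW. NW mice 11, 15 and 20, with 57642 to 60767 tags, had fewer than any N mouse (64724 to 100426), and NW mouse 12, with 120143, had more. NW mouse 12 was below every N mouse for Psmb6 as well, at 85 CPM. The summed hepatocyte markers were 64470 to 91625 CPM in N and 91825 to 111133 in NW, and 57750 to 68798 in HF and 57744 to 84364 in HFW. The part of depth and of these markers in the Psmb6 result was not tested. In whole liver, fewer cells of a type and less RNA per cell cannot be told apart.

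Psma1, an alpha ring subunit and the most counted proteasome gene, did not pass in any contrast. N mice had 193, 419.6, 225 and 382 CPM, NW mice 205, 238, 149.8 and 209, HF mice 411, 313, 156 and 246, and HFW mice 244, 122, 130.4 and 301. The highest value in each diet belonged to a mouse without WEPAK, and the groups overlapped. The mean WEPAK effect was -0.50 (SE 0.25, adjusted p = 0.117, edgeR quasi-likelihood test), with 7 of 8 WEPAK-fed mice below the mean of their diet. Its parts were -0.59 (SE 0.36) for NW minus N and -0.41 (SE 0.34) for HFW minus HF.

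Psmd6, the Rpn7 subunit of the lid, was highest in 2 HF mice. HF mice had 379, 463, 180.2 and 93.2 CPM, and N mice 193, 219, 172 and 66.4. NW mice had 188, 178, 187 and 52.1 CPM, and HFW mice 69.6, 122, 186 and 216. HF mice 23 and 25 were above all other mice, while HF mice 28 and 29 lay within the range of the other groups. HFW minus HF was -0.90 (SE 0.43, adjusted p = 0.166, edgeR quasi-likelihood test), with all 4 HFW mice below the HF mean. HF minus N was 0.74 (SE 0.43, adjusted p = 0.600), the mean high-fat effect 0.35 (SE 0.32, adjusted p = 0.572) and the mean WEPAK effect -0.51 (SE 0.32, adjusted p = 0.241).

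Psmd2, the Rpn1 scaffold that holds ubiquitin receptors on the base, had nearly the same mean in all groups. N mice had 119, 172, 106 and 382 CPM, NW mice 136, 280.4, 243 and 139, HF mice 221, 100.1, 164 and 203, and HFW mice 278, 209.7, 74.5 and 178. The means were 195 ± 128 CPM (SD, n = 4) in N and 199.8 ± 73.2 in NW, and 172 ± 53.6 in HF and 185 ± 84.8 in HFW. The mean WEPAK effect was 0.15 (SE 0.28, adjusted p = 0.730, edgeR quasi-likelihood test).

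**Figure D3:**
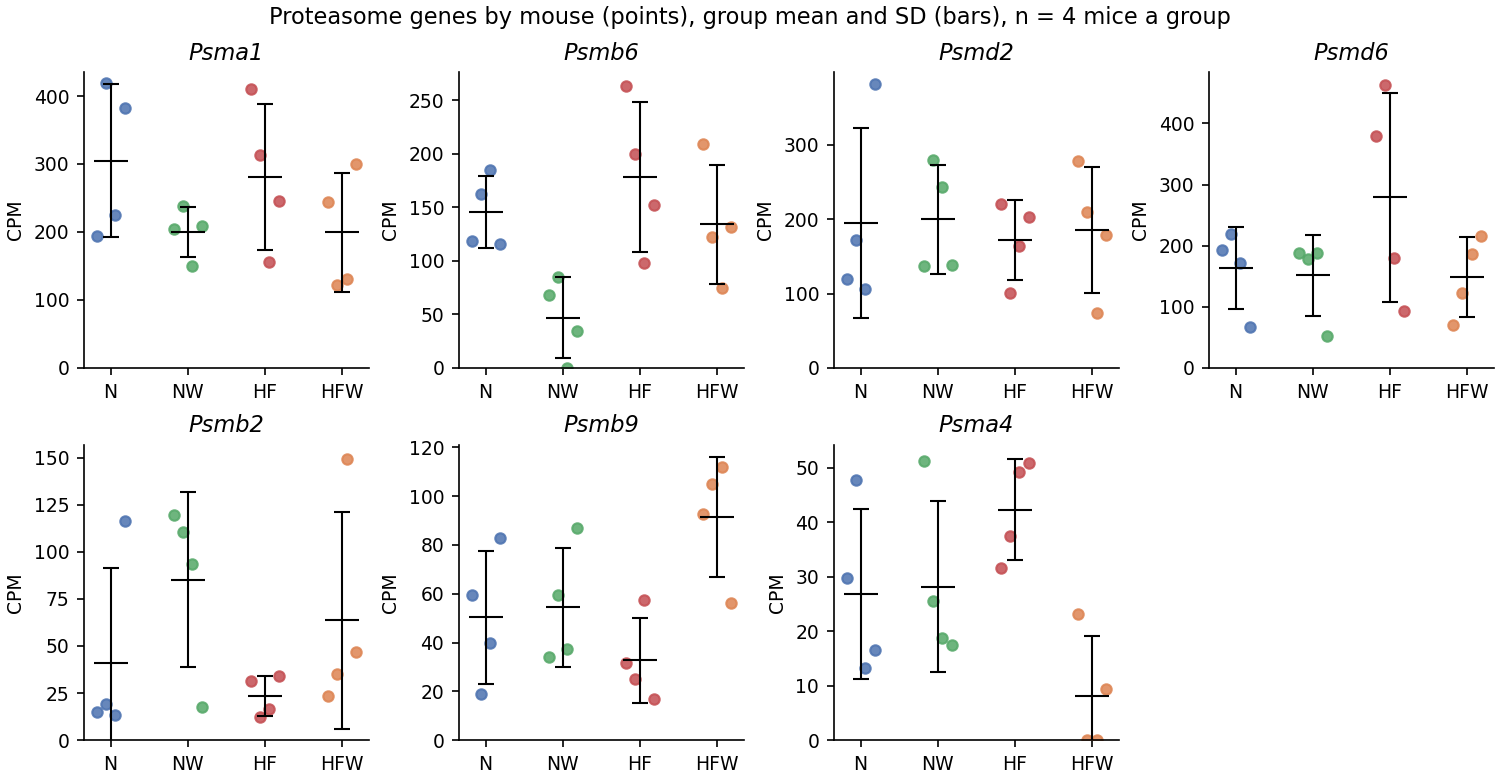
Points are mice, horizontal lines group means and bars SD (n = 4 mice a group), in CPM, for the 4 proteasome genes tested by the main filter (top row) and 3 more that pass a wider filter (bottom row). NW mice lie below all N mice for Psmb6 (0 to 85 against 116 to 185 CPM), and groups overlap widely for Psma1 and Psmd2. How many of all tested genes separate in this way was not counted.

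By contrast, the counts of called proteasome genes were as follows, all by edgeR over 1046 genes. For HF minus N 0 of 4 were called, against 0.0956% of all genes, and for HFW minus NW 0 of 4, against 0%. For HFW minus HF 0 of 4 were called, against 9.85%, and for NW minus N 0 of 4, against 11%. For the mean high-fat effect 0 of 4 were called, against 0.574%, and for the interaction 0 of 4, against 0%. An unadjusted p under 0.05 was reached by 0 of 4 in HF minus N, against 9.85% of all genes, and by 0 of 4 in the interaction, against 2.49%. It was reached by 1 of 4 in HFW minus NW (12.0% of all genes), HFW minus HF (28.6%), NW minus N (28.5%) and the mean high-fat effect (20.6%), and by 2 of 4 in the mean WEPAK effect (42.5%). In the 4 contrasts between groups and the interaction, DESeq2 and limma-voom called 0 of the 4 as well. For the mean high-fat effect limma-voom called 0 of 4, while DESeq2 gave an adjusted p to 539 of the 1046 genes and, of the 4, to Psma1 alone, which was not called.

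**Figure D4:**
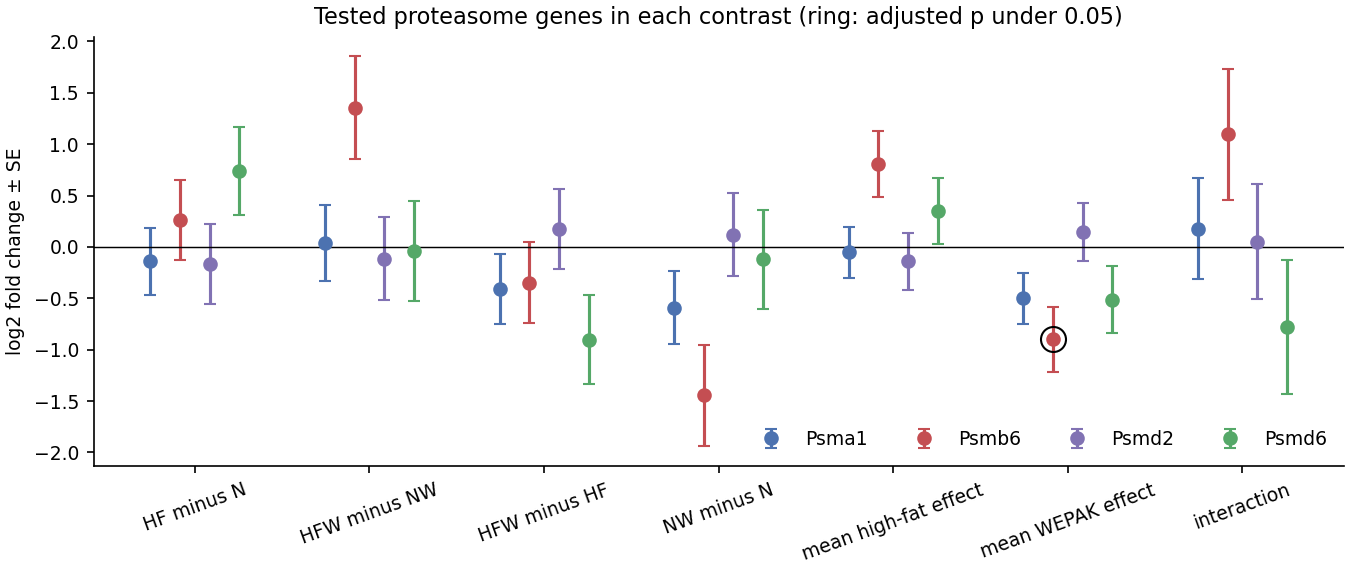
Points are log2 fold changes and bars SE from the edgeR fit of 16 libraries, for Psma1, Psmb6, Psmd2 and Psmd6 in 7 contrasts; a ring marks an adjusted p under 0.05. The ring falls on Psmb6 in the mean WEPAK effect (-0.90), and the bars of Psmb6 reach farthest from 0 in NW minus N (-1.44) and HFW minus NW (1.36).

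A wider filter of at least 5 tags in 4 libraries kept 2042 genes and added Psmb2, Psmb9 and Psma4. For the mean WEPAK effect 2 of 7 proteasome genes were then called, against 17.6% of all tested genes: Psmb6 lower (-0.90, adjusted p = 0.0398) and Psmb2 higher (edgeR quasi-likelihood F test, Benjamini-Hochberg). Psmb2 reached 5 tags in N mouse 8, in NW mice 11, 12 and 15 and in HFW mice 38 and 40, so it was tested because of the WEPAK groups, in which it was high.

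Psmb2, the beta4 subunit, which has no cutting site, had 14.9, 19.1, 13.2 and 116 CPM in N mice and 119, 110.5, 93.6 and 17.4 in NW mice. HF mice had 31.6, 12.5, 16.4 and 33.9 CPM and HFW mice 23.2, 34.9, 149 and 47.0. A single mouse of N and of NW sat at the level of the other group, and HFW mouse 38 was far above the other HFW mice. The mean WEPAK effect was 1.27 (SE 0.46, adjusted p = 0.0481, edgeR), with 1.26 (SE 0.63) for NW minus N and 1.27 (SE 0.67) for HFW minus HF. With a mouse left out it ran from 0.91 to 1.83, and it passed in 5 of 16 cases: without N mouse 8 (adjusted p = 0.00536), NW mouse 20 (0.0279), HF mouse 29 (0.0416), HFW mouse 34 (0.0282) or HFW mouse 36 (0.0486). Without N mice 4 and 8 and with the default filter it was 1.78 (adjusted p = 0.0338, edgeR). This setting removes N mouse 8, the highest N mouse. With all 16 mice Psmb2 reached the level of that filter in 1 library, of HFW, and was not kept. The lowest value came without HFW mouse 38 (adjusted p = 0.214), where HFW minus HF was 0.61, and without each of the other 10 mice the adjusted p was between 0.0513 and 0.107. Without N mouse 8 NW minus N passed as well (2.38, adjusted p = 0.0363, edgeR). Psmb6 and Psmb2, called in opposite directions with this filter, are subunits of the same ring. Psmb2 entered this test through the WEPAK groups, so its direction is not independent of the filter.

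Psma4, the alpha3 subunit, had 31.6, 37.5, 49.1 and 50.9 CPM in HF mice and 23.2, 0, 0 and 9.39 in HFW mice, which do not overlap. The share of all tested genes without overlap in this contrast was not counted. N mice had 29.8, 47.7, 13.2 and 16.6 CPM and NW mice 51.2, 25.5, 18.7 and 17.4. Its HFW minus HF contrast was -1.99 (SE 0.81, adjusted p = 0.142, edgeR), on 21 tags in HF and 3 in HFW, and its mean WEPAK effect -1.0 (SE 0.57, adjusted p = 0.224). Psma4 reached 5 tags in exactly 4 libraries, those of HF mice 25, 28 and 29 and N mouse 5. HF, the group with the highest mean and the deepest libraries, thus counted most toward this filter on raw tags. NW mouse 11, at 51.2 CPM, had 3 tags. Without HF mouse 25, 28 or 29 or N mouse 5 it had no test, and in the other 12 cases HFW minus HF ran from -2.92 to -1.74. Depth differed here, since the HF libraries are the deepest, and its part in the value was not tested.

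Psmb9, the interferon-induced subunit that takes the place of Psmb6, was highest in HFW. HFW mice had 92.8, 105, 112 and 56.4 CPM and HF mice 31.6, 25.0, 57.3 and 17. N mice had 59.5, 19.1, 39.7 and 83.1 CPM and NW mice 34.1, 59.5, 37.4 and 86.9. HFW and HF overlapped by a single mouse of each. Psmb9 reached 5 tags in every HFW mouse and in N mouse 8, NW mice 12 and 20 and HF mouse 28. HFW, where it was high, thus counted most toward the wider filter. HFW minus HF was 1.36 (SE 0.51, adjusted p = 0.108, edgeR), higher in 4 of 4 mice. With a mouse left out in turn it passed in 1 of 16 cases, and the adjusted p by edgeR reached 0.273. The case that passed was without HF mouse 28, the highest HF mouse (1.75, adjusted p = 0.0490, edgeR). NW minus N was 0.26 (SE 0.57), and the mean WEPAK effect 0.81 (SE 0.38, adjusted p = 0.136). Summed lymphocyte markers were 8.48 to 32.8 CPM in HF and 17.5 to 93.2 in HFW, and Kupffer cell markers 568 to 1095 in HF and 507 to 1276 in HFW; their part in the Psmb9 values was not tested.

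Of the 2 alternatives for the beta1 site, Psmb9 made up a larger share of tags in the WEPAK group of each diet. This share reuses the Psmb6 counts behind the call above, so it is not a separate result. In raw tags Psmb9 had 14 in N and 16 in NW, while Psmb6 had 46 and 16. On the high-fat diet Psmb9 had 16 in HF and 26 in HFW, while Psmb6 had 87 and 43. Psmb9 gave 14 of the 60 tags of this pair in N (23.3%, 95% exact binomial interval 13.4% to 36.0%) and 16 of 32 in NW (50%, 31.9% to 68.1%). It gave 16 of 103 in HF (15.5%, 9.15% to 24.0%) and 26 of 69 in HFW (37.7%, 26.3% to 50.2%). Over mice the share was 25.8% ± 14.2 (SD, n = 4) in N and 61.5% ± 30.5 in NW, and 17.2% ± 13.1 in HF and 41.7% ± 14.3 in HFW. Single mice ran from 10.5% to 41.7% in N, 33.3% to 100% in NW, 10% to 36.8% in HF and 30% to 60% in HFW, so the ranges overlapped in each diet. NW mouse 15, the 100%, rests on 2 tags. Without HF mouse 28 the HF mean was 10.6%. The intervals pool mice and cover counting error only, not the spread between mice. PCR copies of a tag cannot be told from separate molecules, so the intervals may be too narrow even for counting error. No test was made of the share.

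**Figure D5:**
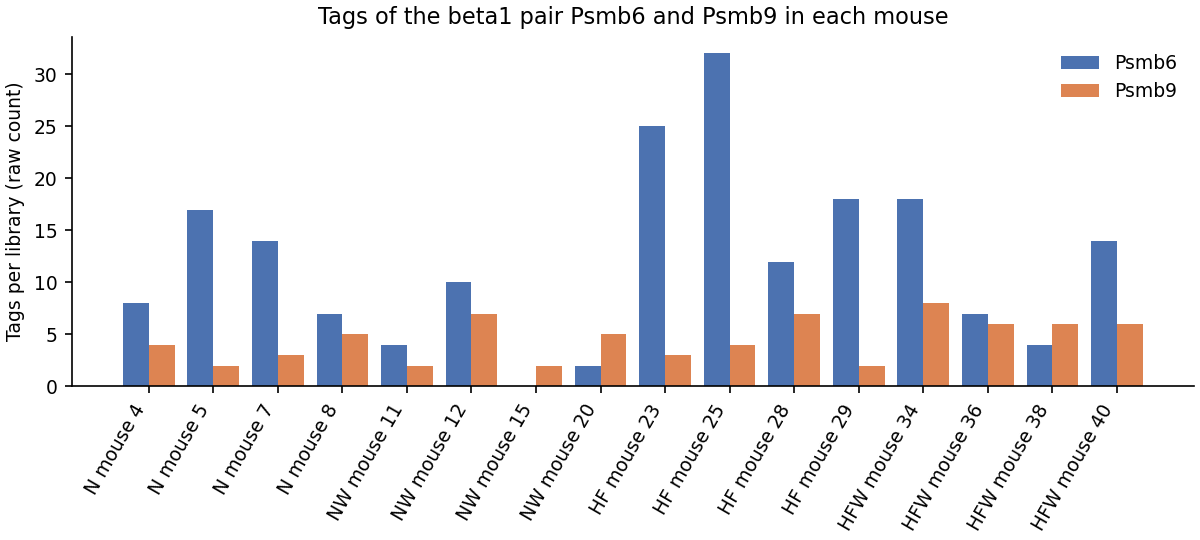
Paired bars give the raw tag counts of Psmb6 and Psmb9 in each of the 16 libraries, which differ in depth. Psmb9 exceeds Psmb6 in NW mice 15 and 20 and HFW mouse 38, and in no N or HF mouse.

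The other exchanges of the immunoproteasome could not be followed. Psmb7, the constitutive beta2 subunit, had 42 tags and Psmb10, its replacement, 3. Psmb5, the constitutive beta5 subunit and the target of many proteasome inhibitors, had 1 tag and Psmb8, its replacement, 4. Psmb7 itself had 29.4 ± 26.1 CPM (SD, n = 4) in N and 19.2 ± 14.5 in NW, and 38.7 ± 23.8 in HF and 34.1 ± 38.8 in HFW, with SDs near the means.

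Proteasome genes outside the symbol pattern and the steps around the particle were read from lists of genes. Of 8 other proteasome genes 5 had a row and 4 had tags, and none passed the main filter. Adrm1, the ubiquitin receptor Rpn13, had 37.2 ± 17 CPM (SD, n = 4) in N and 15.4 ± 4.67 in NW, and 41.5 ± 27.7 in HF and 2.35 ± 4.70 in HFW. Ubb, a polyubiquitin gene, had 103 ± 39.5 CPM in N and 94.3 ± 39.8 in NW, and 108 ± 7.86 in HF and 49.0 ± 46.6 in HFW, and no ubiquitin gene was tested.

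Of 39 E1 and E2 enzymes, which load ubiquitin, 1 was tested. This was Cdc34, the E2 of the cullin ligases, and it fell with WEPAK: 153 ± 55.1 CPM (SD, n = 4) in NW against 605 ± 553 in N, and 211 ± 55.3 in HFW against 1030.3 ± 421 in HF. Its mean WEPAK effect was -2.12 (SE 0.35, adjusted p = 0.000204, edgeR), lower in 8 of 8 mice, and it passed without each mouse in turn (-2.23 to -1.74) and without N mice 4 and 8 (-1.90, adjusted p = 1.4e-06, edgeR).

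Of 18 shuttle factors and partners of p97, 3 were tested and 1 rose: Vcp, the p97 ATPase that pulls ubiquitinated proteins from membranes and complexes, with a mean WEPAK effect of 0.88 (SE 0.24, adjusted p = 0.00717, edgeR), higher in 8 of 8 mice. Of 20 genes of endoplasmic reticulum-associated degradation 5 were tested, and 2 rose for the mean WEPAK effect. Among them was Herpud1, a scaffold of the Hrd1 ligase (0.86, SE 0.23, adjusted p = 0.00556, edgeR), higher in 8 of 8 mice. The median of these 5 was 0.11, against 0.03 over all genes tested. Vcp (0.75 to 1.08) and Herpud1 (0.73 to 0.99) each passed without any 1 of the 16 mice, and without N mice 4 and 8 (Vcp 0.69, adjusted p = 0.0379, and Herpud1 0.80, adjusted p = 0.0192, edgeR).

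Of 14 transcriptional regulators of proteasome genes 1 was tested. Irf1, an interferon-regulated factor known to activate Psmb9, rose for the mean WEPAK effect (0.60, SE 0.21, adjusted p = 0.0315, edgeR, higher in 8 of 8 mice). It had 267 ± 127 CPM (SD, n = 4) in N and 404 ± 80.1 in NW, and 332 ± 67.9 in HF and 512 ± 75.9 in HFW. It passed in 9 of 16 cases with a mouse left out, and not without N mouse 4 or 5, NW mouse 11 or 15, HF mouse 23 or 29, or HFW mouse 38 (adjusted p from 0.0511 to 0.0888, edgeR). Nor did it pass without N mice 4 and 8 (0.49, adjusted p = 0.123) or with no filter (0.47, adjusted p = 0.440). Irf1 was also the 1 of 8 tested antigen presentation genes that was called for this effect, with a median of 0.25 over the 8.

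Of 17 genes of the COP9 signalosome and eIF3, complexes built from relatives of the lid subunits, 2 were tested and both rose for the mean WEPAK effect. Cops5, the signalosome protease related to Psmd14, had 1.20 (SE 0.28, adjusted p = 0.00174, edgeR), higher in 8 of 8 mice, and it passed without each mouse in turn (1.07 to 1.35) and without N mice 4 and 8 (1.27, adjusted p = 0.00356). Eif3f had 0.62 (SE 0.24, adjusted p = 0.0445), higher in 7 of 8. It passed in 7 of 16 cases with a mouse left out, and not without N mouse 4, NW mouse 11 or 15, HF mouse 23, 25 or 28, or HFW mouse 36, 38 or 40 (adjusted p from 0.0509 to 0.119, edgeR). Nor did it pass without N mice 4 and 8 (0.51, adjusted p = 0.145), with DESeq2 (0.62, adjusted p = 0.0576) or with no filter (0.49, adjusted p = 0.518). It also missed with at least 5 tags in 4 libraries (adjusted p = 0.0631), after thinning to the smallest library (0.120) and without the 10 most abundant genes (0.0516, edgeR). In these lists 0 genes were called for the high-fat contrasts by edgeR. All calls stand beside a background of 31.3% for the mean WEPAK effect, and the lists were chosen with results of these data known.

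Promoters, 250 bases before to 50 after the start of a RefSeq gene, were found for 40 of the 48 proteasome genes. The core of the antioxidant response element, TGACNNNGC on either strand, was in 6 of the 40 (15%), among them Psmb6, against 14.0% of 27025 genes. CCAAT on either strand was in 14 (35%), against 41.1% of all genes. Both shares were near those of all promoters.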

How the data were processed

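Per the labels' protocols, cDNA primed with biotinylated oligo-dT was cut with NlaIII, captured on beads, released as tags with EcoP15I and amplified by PCR. Per the file headers, the deposited values are raw tag counts, 1 row per RefSeq transcript and 1 column per mouse. The matching of tags to transcripts, with its RefSeq release and its handling of ambiguous tags, was not given in the sources used here. Of 26782 rows, 417 without a symbol (0.0729% of tags) were left out. Date-like symbols in 41 rows were restored from the RefSeq identifier, except in 1 row, and counts were summed per symbol. Same-group libraries differed by more than sampling noise (chi-square per degree of freedom 2.93 to 15.0, genes with at least 20 tags in the pair).

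The counts were fitted with edgeR 4.0.16 (R 4.3.3), using TMM normalization (trimmed mean of M-values), the default filter (minimum count 10), robust quasi-likelihood fitting over the 16 libraries and Benjamini-Hochberg adjustment over all tested genes. Each SE is approximate, the log2 fold change over the root of its F statistic. The mean effects average the 2 diets or the 2 extract states, and the interaction is HFW minus HF less NW minus N. Alternatives were DESeq2 1.42.0, limma-voom (limma 3.58.1), other filters, other scaling, thinning to 56655 tags and leaving out mice. The functions were tested on simulated data.

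All genes that pass the filter were named, others by counts or where seen in most libraries, and of each list the called genes, or else the one with most tags, except for 1 called gene that is not reported here. The members and lists were chosen with earlier results of these data known. The labels name separate mice and no batch. Promoters are from RefSeq tables, and tags were predicted from GENCODE M21.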

Additional observations from a re-analysis of the deposited data

Results flagged for a closer look

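In 3 of 40 groups of 4 mice (each of the 7 plotted genes and the 3 pooled values, in each feeding group) a mouse stood apart by Dixon's ratio of its gap to the range above its 95% critical value. Chance flags about 1 in 20 groups, and these flags have no explanation here. Psmd6 had 52.1 CPM in NW mouse 20, against 178 to 188 CPM in the other NW mice. Psmb2 had 116 CPM in N mouse 8, against 13.2 to 19.1 CPM in the other N mice. The ratio of core to regulatory tags was 1.45 in HF mouse 29, against 0.962 to 1 in the other HF mice.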

How the results depend on the processing

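No paired analysis was possible because every mouse has a number of its own. The count of called proteasome genes for the mean WEPAK effect, 1 in the main fit, was 0 with no filter, 2 with at least 5 tags in 4 libraries, 0 after thinning to the smallest library (where Psmb6 was below the filter and had no test), 2 without N mice 4 and 8 (Psmb6 and Psmb2), and 0 to 1 with a mouse left out. For NW minus N it was 0 to 1 with a mouse left out, the 1 being without NW mouse 12. For HF minus N, HFW minus NW, HFW minus HF, the mean high-fat effect and the interaction it was 0 under every alternative run, where DESeq2 gave an adjusted p for the mean high-fat effect to Psma1 alone. Alone with N or with HFW, the NW libraries left Psmb6 below the filter, so these fits gave no value.

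Pooled CPM rose with a library total that omits the 10 most abundant genes: for N, NW, HF and HFW the core had 901.6, 660.1, 881 and 827, and the regulatory genes 739, 807, 833 and 796. Without Psma1 the core had 323, 247, 328 and 365, and without Psmd6 the regulatory sum was 298 in HF, 352 in N, 392 in HFW and 395 in NW. The ratio in N was then 0.948. For Psmb9, NW minus N (0.26) ran to 0.58 without N mouse 8 and turned to -0.12 without N mouse 5 and -0.02 without NW mouse 20. The causes were not tested beyond what each setting removes.

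Over all genes, counts of calls with a mouse left out were 263 to 386 for the mean WEPAK effect (main 327), 0 to 31 for HF minus N (main 1), 0 to 107 for the mean high-fat effect (main 6), 31 to 178 for NW minus N (main 115), 40 to 150 for HFW minus HF (main 103) and 0 to 3 for HFW minus NW (main 0). Elsewhere the mean high-fat effect reached 34 with the DESeq2 Wald test, 30 with no filter and 55 without N mice 4 and 8, and HF minus N 2 with DESeq2 and 0 with limma-voom. HFW minus HF was 156 and NW minus N 38 without N mice 4 and 8, NW minus N was 70 with no filter, and HFW minus NW was 3 in its own groups. With no filter, calls were 254 for the mean WEPAK effect, 65 higher and 189 lower (main 159 and 168), 11 and 95 for HFW minus HF (main 44 and 59), and 12 and 58 for NW minus N (main 38 and 77). The rest, 45 of 49 matched genes, were too rarely counted for the main test, and the part of depth in this was not tested.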
